A study of Oryctolagus cuniculus with 36 samples.

Results

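Obeticholic acid (OCA) is a bile acid derivative that activates FXR, a nuclear receptor for bile acids. FXR is active in hepatocytes and in the epithelium of the terminal ileum, where it turns on genes of bile acid export and of the feedback that lowers bile acid synthesis. Some FXR target genes respond in both organs and others in only one of them. Portal vein embolization, a procedure used before liver resection, closes the portal branches of part of the liver, after which the blocked lobes shrink and the remaining ones grow.

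The 3 rabbit genes described here, ENSOCUG00000012520, ENSOCUG00000024104 and ENSOCUG00000006639, were chosen by measured values: a limma adjusted p under 0.05 for a rise after OCA in each of the liver lobes. They are 3 of the 9419 Ensembl gene IDs that both deposited tables list. No source used here pairs these IDs with a gene name, a protein or a position, so nothing is stated of what they encode, and the labelled tissues could not be compared with marker genes.

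Rabbits (Oryctolagus cuniculus, labelled WT) received OCA or vehicle as pre-treatment and then underwent portal vein embolization, so all 6 groups come from embolized animals and none from untouched liver. The groups are terminal ileum, the non-embolized caudal lobe (labelled HypertrophicLiver) and the embolized cranial lobe (labelled AtrophicLiver), each after vehicle (labelled control) and after OCA, with 6 libraries per group. Lobe position and embolization therefore cannot be told apart. The labels do not say which libraries share a rabbit, nor that the libraries of a group are separate rabbits, so p-values measure the spread between libraries only. Dose, age and strain are not stated in the labels.

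Values are normalized counts, read counts that the authors divided by 1 size factor per library. Ileum and liver were normalized in separate tables, so each test stays within a table, and levels of the tissues are set side by side without a test. Library totals recovered from the values ran from 11.2 to 24.5 M reads (M, mega) in ileum and from 12.01 to 27.3 M in liver. Totals of the embolized lobe (12.01 to 17.3 M) lay mostly below those of the non-embolized lobe (14.0 to 27.3 M). In ileum, vehicle 6 and OCA 1 stood apart from the other libraries on the leading principal components, and the ileum fits of named genes and their correlations with the most similar genes are given with and without them. In bulk tissue, a change in the number of cells of a type and a change of RNA per cell cannot be told apart.

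In both lobes all 3 genes were higher after OCA, which is how they were chosen. The fitted factors, non-embolized lobe first, were 6.95 and 8.45 for ENSOCUG00000024104, 2.85 and 3.42 for ENSOCUG00000012520, and 1.94 and 1.86 for ENSOCUG00000006639. In ileum ENSOCUG00000012520 was higher in every OCA library than in every vehicle library without passing the test, ENSOCUG00000006639 had nearly equal means, and ENSOCUG00000024104 was all but undetected. How many of all genes lack overlap between OCA and vehicle libraries was not counted in any tissue. Such separation is therefore given as a description only. None of the 3 passed the test between the embolized and the non-embolized lobe under either treatment.

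**Figure D1:**
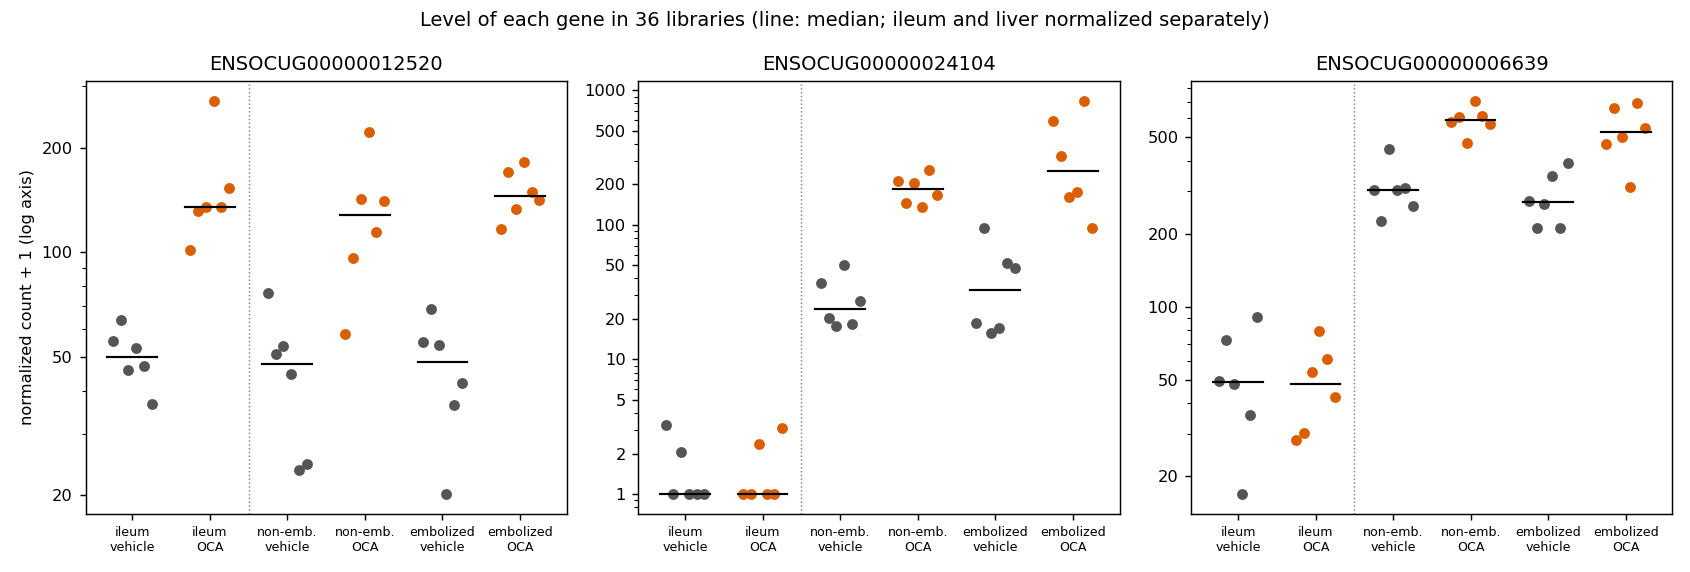
Normalized count + 1 (log axis) of each gene in each library, by tissue and treatment (grey, vehicle; orange, OCA; black line, median; n = 6 per group; dotted line, separately normalized tables). OCA libraries sit above vehicle libraries in both lobes for all 3 genes apart from a few crossings, in ileum only for ENSOCUG00000012520, and ENSOCUG00000024104 lies at or near 0 in ileum.

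ENSOCUG00000024104 had the largest difference of the 3 in liver. In the non-embolized lobe its normalized counts after vehicle were 35.8, 19.4, 16.7, 49.1, 17.4 and 26.1 in replicates 1 to 6. After OCA they were 211, 145, 203, 136, 257 and 167. The lowest OCA library was thus well above the highest vehicle library, and the group means were 27.4 ± 12.8 and 187 ± 45.8 (SD, n = 6). The fitted log2 fold change was 2.80 ± 0.47 (SE), which is a factor of 6.95 with a 95% interval of 3.55 to 13.6.

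In the embolized lobe ENSOCUG00000024104 was at 17.7, 94.4, 14.7, 16.2, 51.2 and 46.5 after vehicle. After OCA it was at 589, 326, 161, 174, 837 and 93.7. The groups touch at 1 point, where OCA 6 lies just below vehicle 2, and 35 of the 36 pairings of an OCA with a vehicle library have the OCA library higher. The means were 40.1 ± 31.1 and 363 ± 292, and the log2 fold change was 3.08 ± 0.47, a factor of 8.45 (95% interval 4.31 to 16.6). This SE pools the spread of both lobes. With only the embolized groups fitted it was 0.57, and the call was lost (limma adjusted p = 0.159).

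The libraries of the embolized lobe were more scattered for this gene than those of the non-embolized lobe. After OCA the highest embolized library exceeded the lowest by a factor of 8.93, against 1.89 in the non-embolized lobe, and the SDs on the log2 scale were 1.202 and 0.35. After vehicle these SDs were 1.07 and 0.60. Over all genes tested the median SD was 0.40 in the embolized OCA libraries and 0.38 in the non-embolized ones. In the vehicle libraries it was 0.44 and 0.34, so genes in general were also more scattered in the embolized lobe there. The difference in spread was not tested.

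In ileum ENSOCUG00000024104 had 4 recovered reads in the 6 vehicle libraries together, of 105 M, and 3 reads in the 6 OCA libraries, of 86.2 M. It was at 0 in 4 libraries of each group, and its highest value was 2.24 normalized counts, from 3 reads in vehicle 1. A count of 0 allows up to 3 reads, which is 2.24 to 4.05 normalized counts depending on the library. This limit covers counting error only. The gene did not pass the filter on low values in ileum, so it was not tested there, and no fold is given.

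For ENSOCUG00000012520, OCA libraries lay above most or all vehicle libraries in liver and ileum alike. Within the non-embolized lobe its normalized counts after vehicle were 75.3, 49.9, 52.7, 43.6, 22.6 and 23.6. After OCA they were 57.3, 95.5, 141, 221, 114 and 140. Only OCA 1 falls within the vehicle range, below vehicle 1, and the means were 44.6 ± 19.8 and 128 ± 55.0 (SD, n = 6). The log2 fold change was 1.51 ± 0.32, a factor of 2.85 (95% interval 1.81 to 4.48).

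In the embolized lobe ENSOCUG00000012520 was at 54.3, 67.8, 53.2, 19.2, 35.3 and 41.2 after vehicle and at 115, 170, 132, 181, 148 and 140 after OCA. The groups did not overlap, though the share of all genes without overlap was not counted. Here the OCA libraries were close together, with an SD of 0.24 on the log2 scale against 0.63 after vehicle and 0.65 after OCA in the other lobe. The means were 45.2 ± 17.0 and 148 ± 24.2, and the log2 fold change was 1.77 ± 0.32, a factor of 3.42 (95% interval 2.17 to 5.38).

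Replicates 1 to 3 and 4 to 6 of each group carry separate runs of library numbers, and ENSOCUG00000012520 differed between these runs. After vehicle, replicates 1 to 3 ran from 49.9 to 75.3 in the non-embolized lobe and replicates 4 to 6 from 22.6 to 43.6. In the embolized lobe the ranges were 53.2 to 67.8 and 19.2 to 41.2. With OCA the order turned, with means of 98.0 and 158 for the non-embolized lobe, and of 139 and 156 for the other. The log2 fold change within replicates 1 to 3 was 0.65 for the non-embolized and 1.23 for the embolized lobe, and within replicates 4 to 6 it was 2.37 and 2.32. In ileum the means of replicates 1 to 3 and 4 to 6 were 54.1 and 44.5 after vehicle, and 121 and 186 after OCA. The ileum log2 fold changes were 1.15 and 1.98 in the same order. The difference between the runs was not tested.

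In ileum ENSOCUG00000012520 was at 54.5, 63.0, 45.0, 51.9, 46.0 and 35.6 after vehicle and at 101, 130, 134, 272, 134 and 152 after OCA. No OCA library reached down to the vehicle range, and the ratio of the means was 3.12. In the non-embolized and the embolized lobe, whose differences chose the gene, it was 2.87 and 3.27. The share of all genes whose OCA and vehicle libraries do not overlap in ileum was not counted. The log2 fold change was 1.57 ± 0.25, a factor of 2.97 with a 95% interval of 2.04 to 4.32. The gene had the lowest unadjusted p of the 9010 genes tested in ileum, 3.12e-05 in limma-trend, but did not pass after adjustment over all of them (limma adjusted p = 0.234). An earlier analysis of these data had already shown this ileal difference, so it is not independent support for the choice of the gene.

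Across all genes 0% were called in ileum (limma-trend, 0 of 9010, with 688 at an unadjusted p under 0.05). On the recovered reads edgeR also called 0 genes and DESeq2 called 80. ENSOCUG00000012520 had an adjusted p of 0.194 with edgeR and of 1.2e-05 with DESeq2. Without the 2 ileum libraries that stood apart 7 genes were called, and it passed in limma (log2 fold change 1.59, limma adjusted p = 0.0454). In the single fits without 1 library its adjusted p ran from 0.101 to 0.418, so leaving out either library alone did not give a call. The vehicle library that stood apart had the lowest vehicle value and the OCA library the lowest OCA value.

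ENSOCUG00000006639 was the most abundant of the 3 by normalized count in liver, although counts are not adjusted for gene length and levels of different genes are not on one scale. Its non-embolized vehicle libraries were at 302, 224, 445, 302, 309 and 259, and the OCA libraries at 574, 603, 470, 706, 612 and 567. The lowest OCA value only just exceeds the highest vehicle value, that of vehicle 3. The means were 307 ± 75.2 and 589 ± 76.4 (SD, n = 6), and the log2 fold change was 0.96 ± 0.19, a factor of 1.94 (95% interval 1.48 to 2.55).

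In the embolized lobe ENSOCUG00000006639 was at 271, 211, 265, 347, 210 and 392 after vehicle and at 467, 660, 502, 312, 692 and 546 after OCA. OCA 4 lies below vehicle 4 and vehicle 6, and the other 5 OCA libraries lie above all vehicle libraries. The means were 283 ± 73.3 and 530 ± 138, and the log2 fold change was 0.90 ± 0.19, a factor of 1.86 (95% interval 1.42 to 2.44). This was the smallest difference of the 3 genes, and also the one with the smallest spread, with a residual SD of 0.34 on the log2 scale against 0.57 for ENSOCUG00000012520 and 0.88 for ENSOCUG00000024104. For its level the spread was not small. Of 500 genes at a similar level 65.2% had a smaller SD, against 68% for ENSOCUG00000012520 and 89% for ENSOCUG00000024104.

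In ileum ENSOCUG00000006639 showed no treatment difference that the libraries could resolve. It was at 48.5, 71.8, 47.0, 15.9, 34.7 and 89.7 after vehicle and at 27.2, 29.1, 52.6, 78.4, 60.1 and 41.4 after OCA. The groups lie over each other, with 17 of 36 pairings higher after OCA and means of 51.3 ± 26.3 and 48.1 ± 19.6 (SD, n = 6). The fitted log2 fold change was −0.00302 ± 0.41 (limma adjusted p = 0.999), and its 95% interval, −0.90 to 0.89, still allows a fall or a rise by a factor of up to 1.86. Without the 2 libraries that stood apart it was 0.33 (limma adjusted p = 0.722), so its sign is not settled. Recovered reads of this gene ran from 15 to 111 per ileum library, against 143 to 1188 per liver library.

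**Figure D2:**
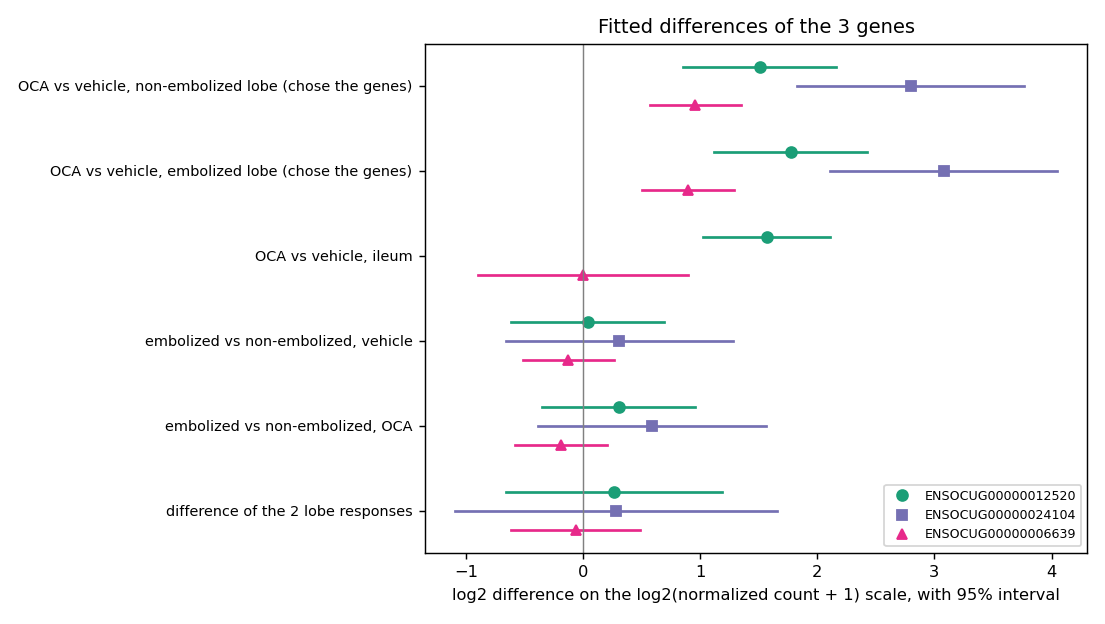
Fitted log2 differences of the 3 genes with 95% intervals, on the log2(normalized count + 1) scale, in the 5 comparisons and in the difference between the lobes' responses. Intervals of the upper pair of rows, which chose the genes, lie above 0, as does that of ENSOCUG00000012520 in ileum (1.03 to 2.11), and all others include 0. ENSOCUG00000024104 has no ileum value.

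The values that chose the genes were the adjusted p-values of the lobe comparisons, given here as a description. In the non-embolized lobe, where 0.37% of the 8653 genes tested (32) were called higher, the limma adjusted p was 0.00559 for ENSOCUG00000024104, 0.0196 for ENSOCUG00000006639 and 0.0230 for ENSOCUG00000012520. In the embolized lobe, where 0.0578% (5) were called higher, it was 0.00723, 0.0458 and 0.0111 in the same order. ENSOCUG00000006639 in the embolized lobe lies just inside the threshold. Just outside are ENSOCUG00000010723, with larger differences (log2 fold changes 3.47 and 2.94) and a limma adjusted p of 0.0522 in the embolized lobe, and ENSOCUG00000012661 (3.23 and 1.49), with 0.0997 there.

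Membership rested on single libraries for 1 gene more than for the others, and in the embolized lobe on the shared fit for all 3, since none passed when only its own groups were fitted. When each of the 24 liver libraries was left out in turn, ENSOCUG00000024104 passed in both lobes in 24 fits, ENSOCUG00000012520 in 19 and ENSOCUG00000006639 in 8. For ENSOCUG00000006639 the adjusted p in the embolized lobe ran from 0.0204 to 0.145 over these fits, while its log2 fold change stayed between 0.81 and 1.04. It rose above 0.05, so the call was lost, without embolized vehicle 1 or 2, without embolized OCA 1, 2, 5 or 6, and without most single libraries of the other lobe, where it reached at most 0.0585. In the non-embolized lobe this gene lost its call without vehicle 5 or 6 or OCA 4 of that lobe, at an adjusted p of up to 0.0614. ENSOCUG00000012520 lost its call in the non-embolized lobe without vehicle 4, 5 or 6 and without OCA 4 or 6 of that lobe, with an adjusted p of up to 0.0827.

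**Figure D3:**
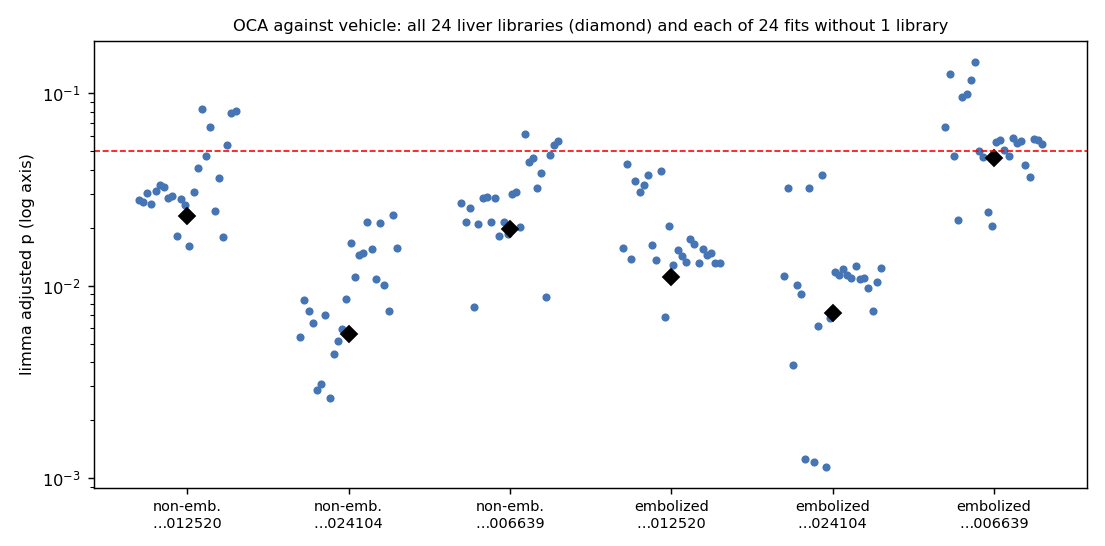
Limma adjusted p (log axis) for OCA against vehicle in each lobe and gene, from all 24 liver libraries (diamonds) and from 24 fits that each lack 1 library (dots). The dashed line is 0.05. Dots of ENSOCUG00000024104 stay below the line in both lobes, and most dots of ENSOCUG00000006639 in the embolized lobe lie above it.

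The lobes were then compared with each other, a contrast that did not choose the genes but shares their libraries. Under vehicle 0 of the 3 genes were called, where 25.5% of all genes tested were called. Under OCA 0 of 3 were called, where 32.1% were called. With 3 genes, such counts say nothing particular about them.

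Under vehicle ENSOCUG00000012520 had nearly the same level in both lobes, 45.2 ± 17.0 embolized and 44.6 ± 19.8 non-embolized (SD, n = 6). Its log2 difference was 0.04 ± 0.32 (limma adjusted p = 0.943, 95% interval −0.61 to 0.69). Only 6.10% of the genes tested had a smaller difference. ENSOCUG00000006639 differed by −0.13 ± 0.19 (limma adjusted p = 0.666, interval −0.52 to 0.27), and ENSOCUG00000024104 by 0.31 ± 0.47 (limma adjusted p = 0.670, interval −0.66 to 1.28). The last difference rested on 1 library: without embolized vehicle 2, the highest of its group, it was −0.00213.

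Under OCA the embolized lobe had 148 ± 24.2 of ENSOCUG00000012520 against 128 ± 55.0 (log2 difference 0.30 ± 0.32, limma adjusted p = 0.497, interval −0.35 to 0.96). For ENSOCUG00000006639 the difference was −0.19 ± 0.19 (limma adjusted p = 0.479, interval −0.58 to 0.20). For ENSOCUG00000024104 it was 0.59 ± 0.47 (limma adjusted p = 0.361, interval −0.38 to 1.56). The upper end of this interval is a level in the embolized lobe 2.95 times that in the non-embolized lobe. Without embolized OCA 5 the difference was 0.27. On recovered reads it was 0.94 with edgeR (edgeR adjusted p = 0.120) and 0.96 with DESeq2 (DESeq2 adjusted p = 0.0888). In the order of the 4 liver groups, the vehicle lobes overlap each other and the OCA lobes overlap each other for all 3 genes.

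The log2 response of the embolized lobe minus that of the other lobe was 0.26 for ENSOCUG00000012520 (95% interval −0.66 to 1.19). It was 0.28 for ENSOCUG00000024104 (−1.09 to 1.65) and −0.06 for ENSOCUG00000006639 (−0.62 to 0.49). The sign of all 3 turned under some setting, for ENSOCUG00000024104 without embolized OCA 5 (−0.0402). Since the genes were chosen by passing in both lobes, these sizes are given without a test and do not show that the lobes respond alike.

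Across tissues the genes can be set side by side only as RPM, the share of a library's listed reads scaled as in CPM, which is a scale that also moves with the other transcripts of a tissue. On it ENSOCUG00000012520 had medians of 3.21 in ileum, 2.86 in non-embolized liver and 2.98 in embolized liver after vehicle, and of 8.85, 7.42 and 8.15 after OCA. ENSOCUG00000006639 had 3.08 in ileum against 16.8 and 17.4 in the lobes after vehicle, and its highest ileum library (5.19) lay below its lowest liver library (10.2). For ENSOCUG00000024104 the vehicle medians were 1.39 and 1.59 in the lobes, and no ileum library exceeded 0.159. These levels were not tested between tissues.

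Within groups the 3 genes did not follow each other from library to library. Over 20 relations, of gene pairs within a group and of each gene between same-numbered libraries of the lobes (n = 6 each, log2 scale), Pearson's r ran from −0.50 to 0.78 and Spearman's rho from −0.49 to 0.83, with 10 of the 20 r values above 0. The smallest exact permutation p (two-sided) was 0.0403 for r and 0.0583 for rho, and the smallest Benjamini-Hochberg adjusted values were 0.781 and 1. Both unadjusted values came from ENSOCUG00000012520 and ENSOCUG00000006639 in ileum after OCA, where r fell to 0.03 without the 2 libraries farthest from the median of ENSOCUG00000012520. With 6 libraries only strong relations could have been detected.

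The genes most like each of the 3 across the 24 liver libraries were sought by Pearson's r of log2(normalized count + 1), as a description, since libraries of a group share their treatment. For ENSOCUG00000012520 they were ENSOCUG00000009041 (r = 0.81) and ENSOCUG00000010134 (r = 0.80). After the group means were subtracted r was 0.82 and 0.69. Both genes were picked as the highest r of the 8653 genes over these same libraries, so these values partly follow from the choice, as does their distance from ileum, where no such choice was made. Over the 12 ileum libraries the same pairs had r = 0.07 and r = −0.60, and 0.0606 and −0.66 without the 2 that stood apart. ENSOCUG00000009041 averaged 632 ± 146 after vehicle and 1149 ± 356 after OCA in non-embolized liver, and 923 ± 166 and 1133 ± 211 in embolized liver. In ileum it averaged 2334 ± 357 and 2398 ± 574 (SD, n = 6) with a log2 fold change of 0.0109 (limma adjusted p = 0.991), or −0.0193 (limma adjusted p = 0.977) without the 2 libraries that stood apart.

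**Figure D4:**
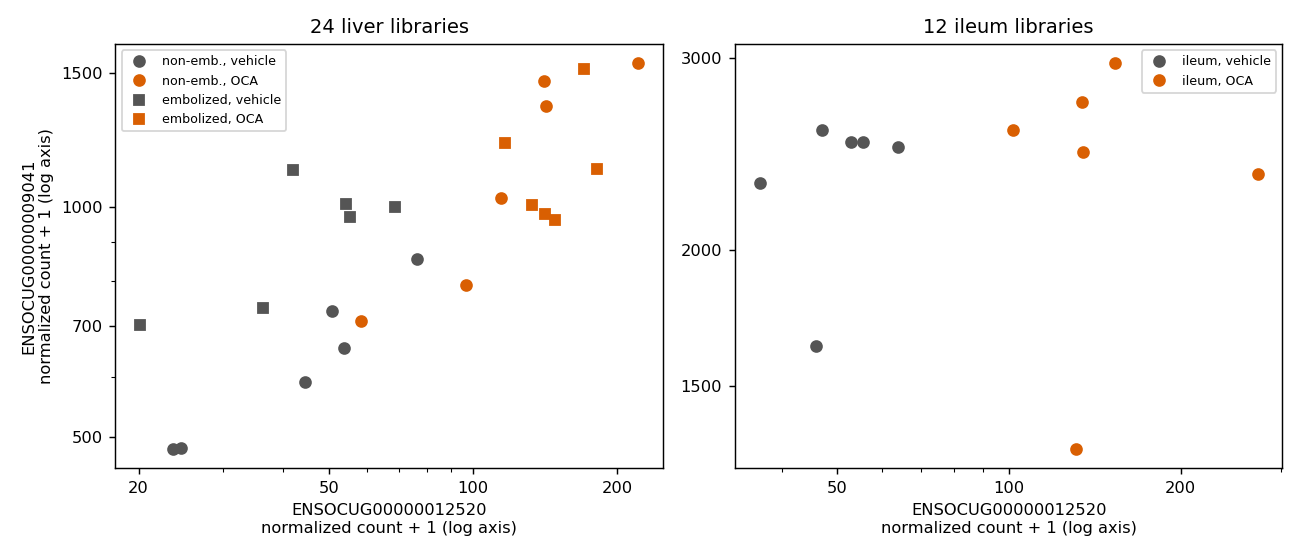
ENSOCUG00000009041 against ENSOCUG00000012520, as normalized count + 1 on log axes, in 24 liver libraries (left; circles, non-embolized; squares, embolized) and 12 ileum libraries (right). Grey is vehicle and orange OCA. The genes rise together across liver libraries (r = 0.81) and not across ileum libraries (r = 0.07).

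For ENSOCUG00000024104 the most similar gene was ENSOCUG00000012520 itself (r = 0.77), followed by ENSOCUG00000007353 (r = 0.73). The first r partly follows from the choice of both members for a rise after OCA in these same libraries. Within groups the 2 r values were 0.10 and 0.24, so the libraries of a group followed each other less than the groups did. For ENSOCUG00000006639 the most similar were ENSOCUG00000007353 (r = 0.81, within groups 0.58) and ENSOCUG00000013583 (r = 0.80, within groups 0.46), with −0.17 and −0.31 over the ileum libraries, and −0.19 and −0.14 without the 2 that stood apart. ENSOCUG00000007353 was higher after OCA by a log2 fold change of 0.60 in non-embolized liver (limma adjusted p = 0.125) and by 0.72 in embolized liver (limma adjusted p = 0.103), and passed in neither. In non-embolized liver ENSOCUG00000009041 rose by 0.83 (limma adjusted p = 0.0433) and ENSOCUG00000013583 by 0.88 (limma adjusted p = 0.0230). In embolized liver their changes, 0.30 (limma adjusted p = 0.533) and 0.52 (limma adjusted p = 0.239), did not pass. ENSOCUG00000010134 passed in neither lobe, with 0.48 (limma adjusted p = 0.0725) and 0.22 (limma adjusted p = 0.471). These genes were picked for following members that were chosen for a rise after OCA in the same libraries. Their own rises in liver therefore partly follow from the choice, and the adjusted p-values are a description only. Of all 8653 genes tested, 0.37% were called higher in non-embolized and 0.0578% in embolized liver.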

How the data were processed

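Per the labels' protocols, strand-specific libraries of total RNA were read as paired ends of 150 bases. The submitters' processing notes name STAR, RSEM and DESeq2. The genome build, annotation and tool versions: not given in the sources used here. Deposited by the authors was 1 table each for ileum and liver, of signal, here meaning read counts over a library's size factor. All values (100%) were whole multiples of what 1 read is worth in their library, within 0.01, so reads were recovered.

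Genes that reached 10 normalized counts in 6 or more libraries were tested, 9010 in ileum and 8653 in liver, by limma-trend (limma 3.58.1, R 4.3.3) on log2(value + 1), with Benjamini-Hochberg adjustment over all genes tested. The 24 liver libraries shared 1 fit. Changes of low genes are understated on this scale. Recovered reads were also tested with edgeR 4.0.16 and DESeq2 1.42.0. None of the 90 library pairs within groups agreed within sampling noise (smallest chi-square per degree of freedom 38.7). Dixon's test on 18 gene-by-group sets found no outlying library.

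The members, lists and tests were chosen with earlier results of these data known. The planned lists of bile acid and cell type genes were not used, since 0 of 9419 IDs matched the RefSeq table (mOryCun1.1, 38822 genes). Named genes are the members, the 2 most alike to each, and the 2 nearest outside the threshold. Same-numbered vehicle libraries of the lobes deviated together (6 of 6 correlations over 0.1, from 0.14 to 0.53) and those of the OCA lobes in 5 of 6. Same-numbered vehicle and OCA libraries, which differ in treatment, were over 0.1 in 4 of 6 for the non-embolized lobe (up to 0.54). For the embolized lobe it was 2 of 6 and for ileum 1 of 6. An embolized library correlated best with the non-embolized library of its own number in 4 of 6 cases after vehicle and 5 of 6 after OCA. Between treatments a library matched its own number best in 2 of 6 for the non-embolized lobe. For the embolized lobe and for ileum it was 0 of 6. Numbers thus matched more between lobes than between treatments, but the labels do not state which libraries share a rabbit. The lobe comparisons given are the unpaired fits. A replicate block within treatment lowered the SE of ENSOCUG00000012520 from 0.32 to 0.25 and changed no lobe call of the 3 genes.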

Additional observations from a re-analysis of the deposited data

How the results depend on the processing

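Besides the fits without 1 library, 15 other settings were tried in the OCA comparisons of the lobes. All 3 genes passed in both lobes in 10 of them, ENSOCUG00000012520 and ENSOCUG00000024104 in 12 each, and every fitted change stayed positive. The causes of the changes below were not tested. The first settings hold fewer libraries, and the part this plays was not tested either. In the non-embolized lobe, replicates 1 to 3 alone gave log2 fold changes of 0.65, 2.97 and 0.81 for ENSOCUG00000012520, ENSOCUG00000024104 and ENSOCUG00000006639, none passing. Replicates 4 to 6 alone gave 2.63 and 1.11 for the last 2, also not passing. Fitting only the groups compared ended the call of ENSOCUG00000012520 (1.51, limma adjusted p = 0.0590). In the embolized lobe no gene passed in replicates 1 to 3 (1.23, 3.38 and 1.11), in replicates 4 to 6 (2.32, 2.78 and 0.68) or with only the groups compared (1.77, 3.08 and 0.90). ENSOCUG00000006639 also missed the threshold there without a variance trend (limma adjusted p = 0.0593) and with a replicate block (0.90, limma adjusted p = 0.0578), although numbers of vehicle and OCA libraries were not read as pairs. The replicate block changed no other call of the 3 genes, and it moved the counts of all genes called after OCA to 127 (non-embolized) and 30 (embolized).

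Without 1 library, ENSOCUG00000012520 ran from 1.33 to 1.71 and ENSOCUG00000006639 from 0.88 to 1.07 in the non-embolized lobe, and ENSOCUG00000006639 from 0.81 to 1.04 in the embolized lobe. In ileum ENSOCUG00000012520 passed with sample quality weights (1.59, limma adjusted p = 0.0138), with DESeq2 (1.64) and without both libraries that stood apart (1.59). ENSOCUG00000006639 in ileum changed sign with equal totals (0.0538), equal upper quartiles (0.0180), quality weights (0.39), replicates 4 to 6 (0.64) and without both libraries that stood apart (0.33), and ran from −0.29 to 0.19 without 1 library. Between the vehicle lobes ENSOCUG00000012520 turned negative with equal totals (−0.0417) and in replicates 1 to 3 (−0.00433), and ran from −0.12 to 0.26 without 1 library. ENSOCUG00000024104 ran from −0.00213 to 0.52 there, and ENSOCUG00000006639 was 0.0789 in replicates 4 to 6. Its difference of responses was 0.30 in replicates 1 to 3 and −0.43 in replicates 4 to 6. That of ENSOCUG00000012520 was −0.11 with quality weights, and that of ENSOCUG00000024104 ran from −0.0402 to 0.59 without 1 library. Between the OCA lobes no sign turned, and without 1 library ENSOCUG00000012520 ran from 0.0981 to 0.48, ENSOCUG00000024104 from 0.27 to 0.90 and ENSOCUG00000006639 from −0.27 to −0.0450. The ileum correlations without both libraries that stood apart were chosen after seeing the data. With equal totals the median log2 change of all genes after OCA in the embolized lobe was 0.15, against 0.0226 in the fit reported. For the difference of responses it was 0.14, against 0.00696.

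Counts of all genes called also moved with the setting. Over all settings they ran from 0 to 349 in ileum, 5 to 398 (54 in the fit reported) in the non-embolized and 0 to 298 (17) in the embolized lobe after OCA, 568 to 3443 (2210) between vehicle lobes, 880 to 3317 (2781) between OCA lobes, and 0 to 5 for the interaction.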
